A study of Mus musculus with 4 samples.

Results

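The genes described here make, break down and sense prostaglandins in the mouse uterus, together with Lpar3, a receptor for lysophosphatidic acid (LPA) that acts upstream of Ptgs2 at implantation. The 10 genes were chosen by symbol: the phospholipase gene Pla2g4a, the cyclooxygenase genes Ptgs1 and Ptgs2, the terminal synthase genes Ptges and Ptgis, the breakdown enzyme gene Hpgd, the receptor genes Ptger2, Ptger4 and Ptgfr, and Lpar3. All 10 symbols were found among the 19991 genes of the deposited TPM table and, by their Ensembl identifiers, among the 57186 genes of the count table. All 10 also passed the filter on low counts.

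RNA was sequenced from whole uterus on gestational day 4, in 2 control samples and 2 knockout samples. The controls were wild type. The knockouts had the genotype Prss29Cre/Cre;Pgrf/f (Pgr gecKO): Cre sits at both copies of Prss29, a serine protease gene of uterine glands, and both copies of Pgr, the progesterone receptor gene, are floxed, so that Pgr is to be lost in gland epithelium. Both groups share the tissue and the day of pregnancy, and the labels give no age, strain or mating details. The groups differ in Cre and in the state of the Prss29 locus as well as in Pgr, and these cannot be told apart. Total counts were between 29932153 and 35149834 per library. The labels call the samples replicates without saying that each came from its own animal, so the tests below capture only how these samples vary, some of which may be technical variation.

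Prostaglandins are made from arachidonic acid, which cytosolic phospholipase A2 (Pla2g4a) frees from membranes. The cyclooxygenases encoded by Ptgs1 and Ptgs2 turn it into a common precursor, and terminal synthases turn that into prostaglandin E2, prostacyclin and the other prostanoids, which act through their own receptors until 15-hydroxyprostaglandin dehydrogenase (Hpgd) inactivates them. In the mouse uterus these lipids are known for their part in blastocyst attachment, spacing and the decidual response. Mice lacking Lpar3 or Pla2g4a implant late and with crowded embryos, and Ptgs2 is known to be induced around the attaching blastocyst, whereas Ptgs1 is known from the epithelium before attachment.

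The promoters of 4 genes are shown, chosen by the expression values given below. Ptgs1 and Ptgs2 were the steadiest and the most variable of the 10 genes by the ratio of the highest to the lowest library. The other genes shown are Ptger2 and Ptgfr, whose groups did not overlap. Sequences are from RefSeq on GRCm38.p6, whereas the deposited counts were made on GRCm39, so the coordinates below belong to GRCm38.p6 alone. Each runs 5′ to 3′ from 250 bases before to 30 bases after the annotated start, with matches to the motifs searched in capitals.
Ptgs1, chr2:36230176-36230455, plus strand: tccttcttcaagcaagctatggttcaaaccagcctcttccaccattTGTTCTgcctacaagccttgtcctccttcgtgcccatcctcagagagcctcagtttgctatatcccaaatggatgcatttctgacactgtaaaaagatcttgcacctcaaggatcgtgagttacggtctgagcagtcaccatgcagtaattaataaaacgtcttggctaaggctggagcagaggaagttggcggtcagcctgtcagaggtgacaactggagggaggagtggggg
Ptgs2, chr1:150099781-150100060, plus strand: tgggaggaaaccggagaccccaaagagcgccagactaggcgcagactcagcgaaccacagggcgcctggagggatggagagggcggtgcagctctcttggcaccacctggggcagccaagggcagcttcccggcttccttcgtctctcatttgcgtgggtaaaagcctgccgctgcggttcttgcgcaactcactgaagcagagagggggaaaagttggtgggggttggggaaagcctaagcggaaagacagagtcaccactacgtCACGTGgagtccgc
Ptger2, chr14:44987861-44988140, plus strand: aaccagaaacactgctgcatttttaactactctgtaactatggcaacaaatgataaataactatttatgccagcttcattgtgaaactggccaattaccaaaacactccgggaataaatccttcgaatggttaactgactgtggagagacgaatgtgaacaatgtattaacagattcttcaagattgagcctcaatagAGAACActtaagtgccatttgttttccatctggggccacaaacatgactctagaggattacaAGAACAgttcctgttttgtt
Ptgfr, chr3:151837499-151837778, minus strand: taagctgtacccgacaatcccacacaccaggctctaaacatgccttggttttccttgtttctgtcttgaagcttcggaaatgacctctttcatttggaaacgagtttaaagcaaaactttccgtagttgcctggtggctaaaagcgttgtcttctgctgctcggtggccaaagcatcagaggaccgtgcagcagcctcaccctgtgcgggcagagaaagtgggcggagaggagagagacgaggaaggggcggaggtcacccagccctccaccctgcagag

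The motifs, searched on both strands, were the progesterone receptor hexamer TGTTCT, the full palindromic progesterone response element (whose arms are looser forms of that hexamer), the palindromic oestrogen response element, the AP-1 site TGANTCA, the cAMP response element TGACGTCA, the E-box CACGTG and the TATA box TATAAA. The capitals in Ptgs1 are 1 match to the progesterone receptor hexamer that begins at position -204, counted from the start. The promoter of Ptger2 holds 2 such matches, on the opposite strand, at -52 and 11. In Ptgs2 the capitals are an E-box that begins at 17, and none of these letters was found in the window of Ptgfr. Windows were given for 9 of the 10 genes, 10 windows in all. The hexamer was in 4 of them, against 17.8% of 32851 promoter windows of the same length. The E-box was in 1 (6.79% of all windows) and the TATA box in 2 (13.1%). The full progesterone response element was in 0 (0.435% of all windows), as were the oestrogen response element (0.067%), the AP-1 site (7.46%) and the cAMP response element (1.74%). A match is a description of the letters only.

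The order of the genes by level was read from TPM, which is scaled by gene length and so allows genes to be compared. Lpar3 was the most abundant in every library, with a mean of 133.3 TPM over the 4 libraries, and it was above the next gene, Pla2g4a at 65.3 TPM, in 4 of 4. Then came Ptgis at 60.5, Hpgd at 54.7, Ptgs1 at 41.1, Ptger2 at 38.4 and Ptger4 at 30.6 TPM. Among these, Hpgd lay above Ptgs1 in 4 of 4 libraries, but Pla2g4a over Ptgis, Ptgis over Hpgd and Ptgs1 over Ptger2 held in only 3 of 4, and Ptger2 over Ptger4 in 2 of 4, so these neighbours did not differ beyond their spread. Ptger4 was above Ptges (14.9 TPM), and Ptges above Ptgfr (6.08 TPM), in 4 of 4. Ptgfr and Ptgs2 (5.59 TPM) changed places from library to library.

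**Figure D1:**
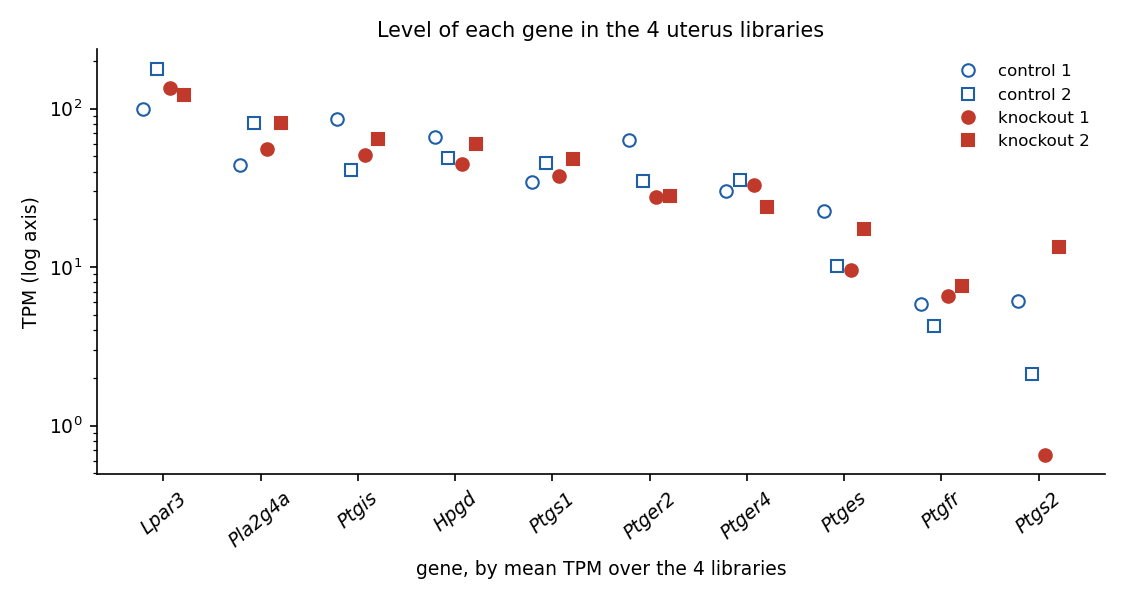
TPM (log axis) of the 10 genes in each of the 4 libraries, 1 point per library, with controls as open and knockouts as filled symbols, ordered by mean TPM. Most genes lie within about the same range in both groups, while Ptgs2 runs from 0.654 to 13.4 TPM, with both ends in the knockout group.

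None of the 10 genes passed the test for a difference between knockout and control. By edgeR's quasi-likelihood test with Benjamini-Hochberg adjustment over 20950 genes, 0 of 10 passed 0.05 in either direction, and the adjusted p was 1.0 for each. Across all tested genes 0.00477% were called, which is 1 gene. Not passing does not show that a gene was unchanged. Prss29, with 1524 and 190 counts in the controls and 0 in both knockouts, did not pass either (adjusted p = 0.386, edgeR). At an unadjusted p under 0.05 there was 1 of the 10, Ptger2, against 3.01% of all tested genes. DESeq2 and limma-voom also called 0 of the 10, with 1 and 0 at an unadjusted p under 0.05. The median log2 fold change of the 10 genes was -0.056, beside 0.0063 over all tested genes, with 4 above 0 and 6 below. Both knockout libraries lay above both controls for 1 gene, Ptgfr, and below both for 1 gene, Ptger2, where 12.2% and 13.1% of all tested genes did so (25.3% in either direction). All fold changes below are knockout over control from this fit, on the log2 scale, with standard errors and 95% intervals. A difference in whole uterus can come from fewer cells of a type or from less RNA per cell, and these cannot be told apart.

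**Figure D2:**
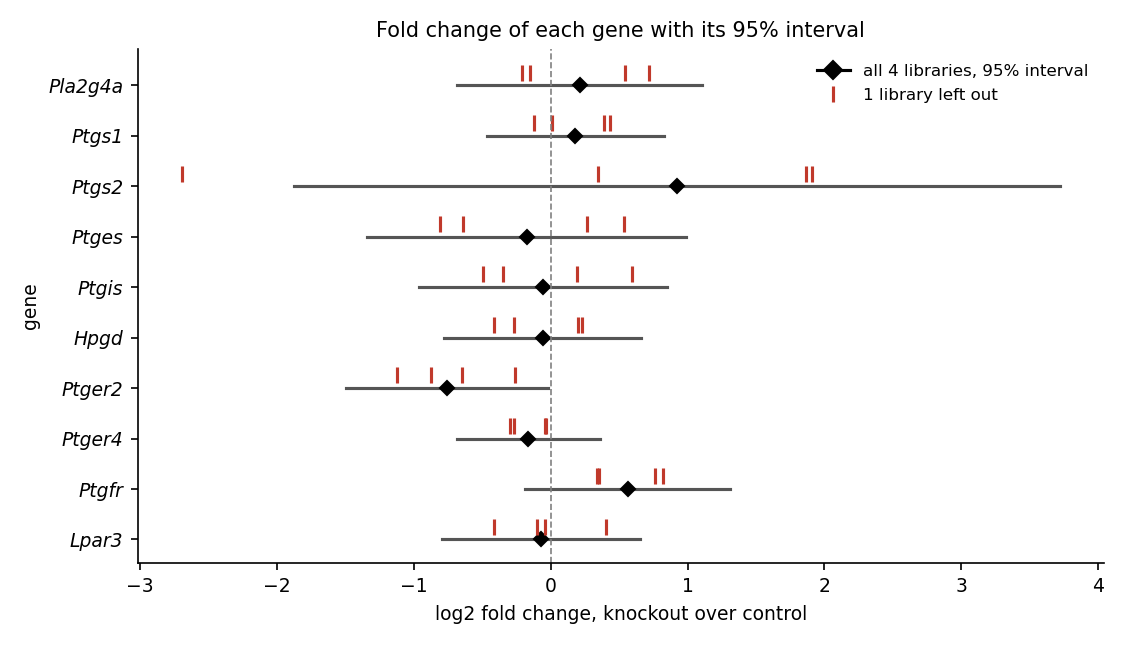
Log2 fold change (knockout over control) of each gene from all 4 libraries, as a diamond with its 95% interval, and from the 4 fits that leave out 1 library, as red bars. The intervals of 9 genes cross 0, that of Ptger2 ends at -0.021, and the red bars of Ptgs2 run from -2.70 to 1.91.

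Pla2g4a, which encodes the phospholipase that supplies arachidonic acid, stood at 43.7 and 81.1 TPM in controls 1 and 2 and at 55.5 and 81.0 TPM in knockouts 1 and 2. Control 2 and knockout 2 were nearly equal and each was above the other library of its group, so the groups overlapped. This gave a log2 fold change of 0.21 (SE 0.38, interval -0.68 to 1.11). It became -0.15 without control replicate 1 and -0.21 without knockout replicate 2. In the RefSeq gene order of chromosome 1, Pla2g4a is the next protein-coding gene to Ptgs2, with 2 noncoding genes between them.

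The cyclooxygenase genes differed in their spread across libraries. Ptgs1, the constitutive isoform, was at 34.2 and 45.0 TPM in the controls and 37.4 and 47.7 TPM in the knockouts. Its 4 values lay within 1.40-fold of each other and the groups overlapped. The log2 fold change was 0.18 (SE 0.27, interval -0.47 to 0.82), and it was -0.12 without knockout replicate 2. The upper end of the interval corresponds to a level 1.77 times that of the controls.

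Ptgs2, the inducible isoform, was at 6.13 and 2.12 TPM in controls 1 and 2 and at 0.654 and 13.4 TPM in knockouts 1 and 2. The knockout libraries were thus the lowest and the highest of the 4, with both controls between them. The underlying counts were 305 and 106 in the controls against 30 and 603 in the knockouts, and the exact Poisson 95% intervals of the last pair, 20.2 to 42.8 and 555.8 to 653.1 counts, were far apart. These intervals cover counting error only. Between the knockouts Ptgs2 differed 22.3-fold (CPM, counts scaled to library size, with a prior count of 2), and 0.1% of tested genes differed as much or more. Between the controls it differed 2.87-fold, and 4.79% of tested genes differed as much or more. The median tested gene differed 1.32-fold between the knockouts and 1.25-fold between the controls. The log2 fold change between the groups, 0.92 with a standard error of 1.17, had an interval from -1.88 to 3.72, which spans 3.67-fold lower to 13.2-fold higher. Its direction was not stable. Without knockout replicate 2 it was -2.70 (SE 0.75, adjusted p = 0.864, edgeR), and without knockout replicate 1 it was 1.86. With all 4 libraries it was -0.29 by limma-voom, -0.22 on the log2(TPM + 0.1) scale and -0.13 with the replicate number as a block.

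Ptgs1 exceeded Ptgs2 in TPM in every library, by 5.58-fold and 21.3-fold in the controls and by 57.1-fold and 3.55-fold in the knockouts. Ptgs2 therefore made up 15.2% and 4.49% of the summed TPM of both isoforms in controls 1 and 2 against 1.72% and 22.0% in knockouts 1 and 2. The sum itself was 40.3 and 47.1 TPM in the controls and 38.0 and 61.2 TPM in the knockouts. The groups overlapped in the ratio, and with 2 samples against 2 the smallest p that an exact two-sided permutation test allows is 0.333, so no ratio was tested.

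**Figure D3:**
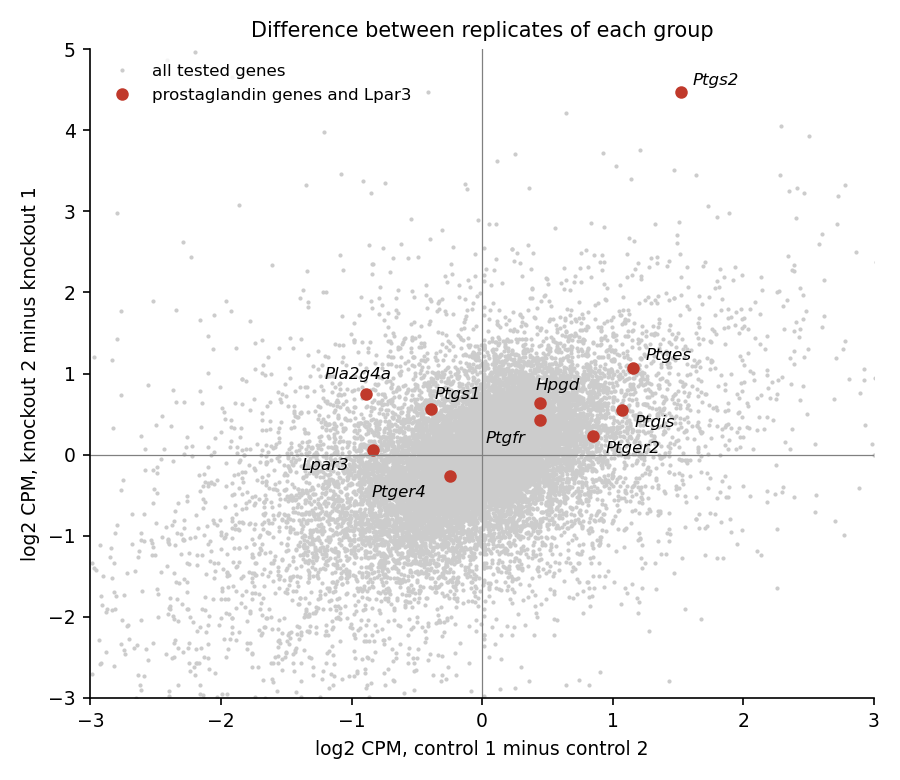
Difference in log2 CPM (prior count 2) between control 1 and control 2 (horizontal) and between knockout 2 and knockout 1 (vertical), for all tested genes in grey and the 10 genes in red. Ptgs2 stands at the top right, and 189 genes fall outside the axes, which run from -3 to 3 and from -3 to 5.

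For the terminal synthase genes no difference between the groups was larger than the spread of their replicates. Ptges encodes microsomal prostaglandin E synthase, the inducible enzyme that makes prostaglandin E2. It was at 22.5 and 10.1 TPM in the controls and 9.61 and 17.5 TPM in the knockouts. Control 1 and knockout 2 were the high libraries, and the groups overlapped. This gave a log2 fold change of -0.18 (SE 0.49, interval -1.34 to 0.99), with values of 0.53 when control replicate 1 was left out and 0.26 when knockout replicate 1 was. Ptgis encodes prostacyclin synthase, whose product is known to act at implantation through the nuclear receptor PPAR-delta. Its levels were 85.5 and 40.7 TPM in the controls and 51.1 and 64.6 TPM in the knockouts, so that both knockouts lay between the controls. Its log2 fold change was -0.053 (SE 0.38, interval -0.96 to 0.85), with values of 0.60 when control replicate 1 was left out and 0.19 when knockout replicate 1 was. Within libraries, Ptgis was 3.80-fold and 4.04-fold above Ptges in the controls and 5.32-fold and 3.69-fold above it in the knockouts.

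Hpgd, which encodes the enzyme that starts prostaglandin breakdown, was at 66.1 and 48.6 TPM in the controls and 44.3 and 60.0 TPM in the knockouts. Control 1 was the highest library and knockout 1 the lowest, and the groups overlapped. The log2 fold change was -0.059 (SE 0.30, interval -0.78 to 0.66), with values of 0.20 when control replicate 1 was left out and 0.23 when knockout replicate 1 was. Per library, Hpgd was 1.64 and 1.03 times the sum of Ptgs1 and Ptgs2 in the controls, and 1.17 and 0.981 times that sum in the knockouts.

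Among the receptor genes, Ptger2 and Ptgfr were the only ones of the 10 genes whose groups did not overlap in the 4 libraries. Ptger2 encodes EP2, a prostaglandin E2 receptor that raises cAMP. It was at 63.1 and 35.04 TPM in controls 1 and 2 and at 27.6 and 27.9 TPM in knockouts 1 and 2. Both knockouts were below both controls, but most of the distance came from control 1. This gave a log2 fold change of -0.76 (SE 0.31, interval -1.50 to -0.021), 1.69-fold lower, with unadjusted p = 0.0454 and adjusted p = 1.0 over all genes (edgeR), and it did not pass. Without control replicate 1 it was -0.26. An antisense gene on the opposite strand of Ptger2, Gm17173, had 163 and 113 counts in the controls against 70 and 65 in the knockouts. The strand setting of the counting is not given in the sources used here, so reads of the antisense gene and of Ptger2 may not be told apart.

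Markers of gland cells and macrophages also had lower summed levels in both knockouts, although 0 genes of either list passed the test (edgeR). The summed CPM of the 9 gland markers was 231.9 and 183.9 in the controls against 101.5 and 106.9 in the knockouts, with 7 of 9 below both controls in both knockouts, where 13.1% of all tested genes were. This list holds Prss29, the gene disrupted by Cre, and Lif. Its members Cxcl15 and Sox9 overlapped between the groups. Cxcl15 was at 29.5 and 38.6 CPM in controls 1 and 2 and at 35.7 and 72.6 CPM in knockouts 1 and 2. It thus made up most of the gland sum in knockout 2. The summed CPM of the 8 macrophage markers was 466.7 and 576.3 in the controls against 309.7 and 378.3 in the knockouts, with 6 of 8 below. Within the controls the macrophage sum was higher in control 2. Lyz2 held much of that sum, at 201.0 CPM in control 1 and 358.1 CPM in control 2. Csf1r and Cd68 were also higher in control 2. Adgre1, Mrc1, C1qa, C1qb and Fcgr1 were higher in control 1, as was Ptger2. No marker of these lists was at 0 in every library, and Prss29, where Cre sits, was at 0 counts in both knockouts. The part of these cells in the Ptger2 values was not tested.

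Ptger4, the gene of EP4, another prostaglandin E2 receptor that raises cAMP, was at 30.001 and 35.6 TPM in the controls and 33.0 and 23.8 TPM in the knockouts. Knockout 2 was the lowest library, while knockout 1 lay between the controls. The log2 fold change was -0.16 (SE 0.22, interval -0.68 to 0.36), the narrowest interval of the 10. Ttc33, on the opposite strand, overlaps Ptger4 and had between 965 and 1043 counts per library. Set against each other in TPM, Ptger2 was 2.10 times Ptger4 in control 1 but 0.985 times in control 2, and 0.837 and 1.18 times in the knockouts, so that control 1 alone stood apart.

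Ptgfr encodes FP, the prostaglandin F2α receptor known for its role in luteolysis and labour. It was at 5.82 and 4.27 TPM in the controls and 6.57 and 7.63 TPM in the knockouts. Both knockouts were above both controls, by a small margin over control 1. This gave a log2 fold change of 0.56 (SE 0.31, interval -0.18 to 1.31) with unadjusted p = 0.117 and adjusted p = 1.0 (edgeR). It lay between 0.34 and 0.82 when 1 library was left out.

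Lpar3 encodes the LPA receptor of the luminal epithelium. It was at 99.8 and 178.7 TPM in the controls and 133.8 and 121.0 TPM in the knockouts, which both lay between the controls. The log2 fold change was -0.071 (SE 0.30). The interval, -0.79 to 0.65, runs from 1.73-fold lower to 1.57-fold higher. The direction turned to 0.41 without control replicate 2. Lpar3 was lowest in control 1, and luminal epithelium markers had their lowest summed level there too, with 556.7 CPM over 6 genes against 1208 CPM in control 2 and 976.6 and 1018 CPM in the knockouts. No marker of that list was at 0 in every library, and Krt13 had 0 counts in control 1. The part of luminal cells in the Lpar3 values was not tested.

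The libraries fell into a common order for 6 of the 10 genes. For Ptgs2, Ptges, Ptgis, Hpgd, Ptger2 and Ptgfr, control 1 was above control 2 and knockout 2 above knockout 1 in CPM, an order shared by 33.4% of all tested genes. Pla2g4a, Ptgs1 and Lpar3 had control 2 above control 1 and knockout 2 above knockout 1 (15.1% of all tested genes; for Lpar3 the knockouts are in the opposite order in TPM), and Ptger4 had the reverse of the first order (35%). The summed CPM of 10 smooth muscle markers followed the first order, with 7644 and 2564 in controls 1 and 2 against 6349 and 10180 in knockouts 1 and 2, and none of its genes was at 0 in every library. The sum of the 8 stroma markers followed it too, at 10180 and 5371 CPM in the controls and 6241 and 7346 CPM in the knockouts, but only 4 of its genes (Col1a1, Col3a1, Dcn and Vim) did so singly, and Hoxa10, Hoxa11, Hand2 and Pdgfra had knockout 1 above knockout 2. The summed level of 6 adipocyte markers was highest in knockout 2, at 38.5 CPM, against 0.544 in knockout 1 and 1.24 and 6.90 in the controls, and there Adipoq and Cidec had 0 counts in control 1 and knockout 1. The part of muscle, stroma or fat in the values of the 6 genes was not tested.

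**Figure D4:**
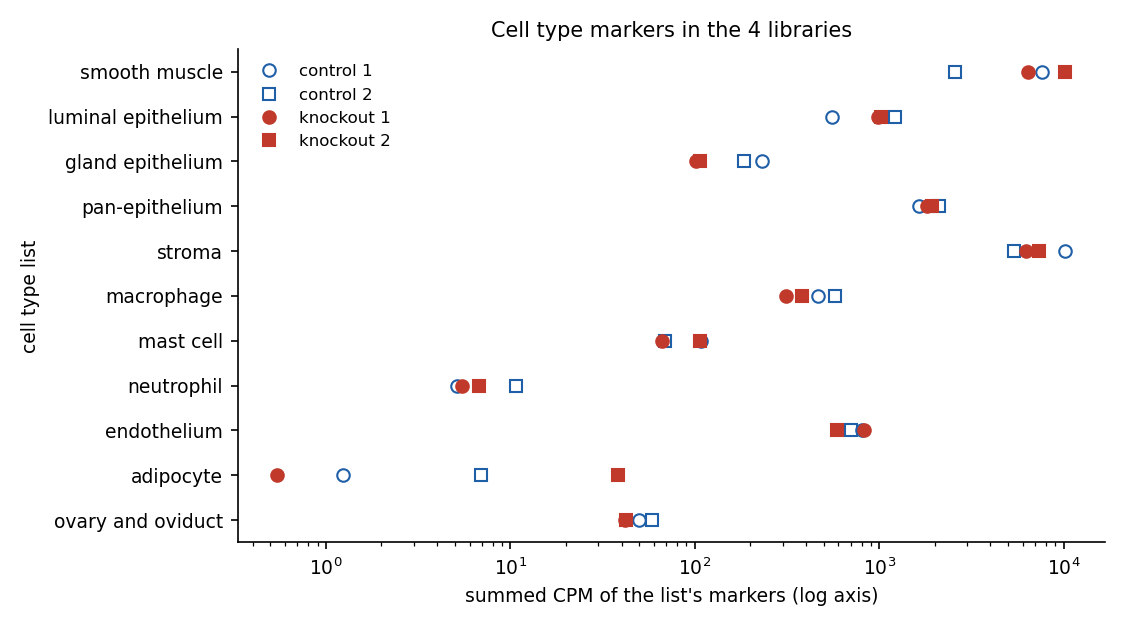
Summed CPM (log axis) of each cell type list in the 4 libraries, 1 point per library. Smooth muscle markers run from 2564 CPM in control 2 to 10180 CPM in knockout 2. The gland sum is lower in both knockouts, and the adipocyte sum is highest in knockout 2.

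The lists gave RNA levels of marker genes, not amounts of cell types. Acta2, a smooth muscle actin gene, was between 730.8 and 3137 TPM, the luminal gene Msx1 between 211.0 and 442.0 TPM and the stromal collagen gene Col3a1 between 503.4 and 1268 TPM. The 6 ovary and oviduct markers summed to 49.7 and 58.2 CPM in the controls and to less in both knockouts, 41.9 and 42.5 CPM. Of these, Ovgp1 was at 26.4 and 32.6 TPM in the controls and 15.3 and 18.2 TPM in the knockouts, Inha between 9.62 and 31.4 TPM and Star between 8.67 and 10.1 TPM, while Cyp19a1 and Hsd3b1 had 0 counts in every library. As a check on the genotype, Prss29 had 1524 and 190 counts in controls 1 and 2 and 0 in both knockouts. Pgr was at 52.6 and 52.0 TPM in the controls and 50.3 and 49.0 TPM in the knockouts (log2 fold change -0.015, SE 0.21). Because cells outside the glands also express Pgr, its level in whole uterus does not check the deletion in glands.

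The rest of the pathway was read from a list of 63 genes in 6 roles, and none of them passed the same test. Of the 60 that were tested, 0 passed in either direction in edgeR, with 5 at an unadjusted p under 0.05, where 3.01% of all tested genes were. The median log2 fold change of the list was -0.062, beside 0.0063 over all tested genes. Both knockouts were above both controls for 11 genes (18.3% of the list) and below for 13 (21.7%), where 12.2% and 13.1% of all tested genes did so. limma-voom also called 0. DESeq2 called 2, Pla2g4b and Lif, while it called 0.392% of its tested genes. Without a filter on low counts edgeR called 1 of the list, Pla2g4b, and 0.158% of all genes.

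**Figure D5:**
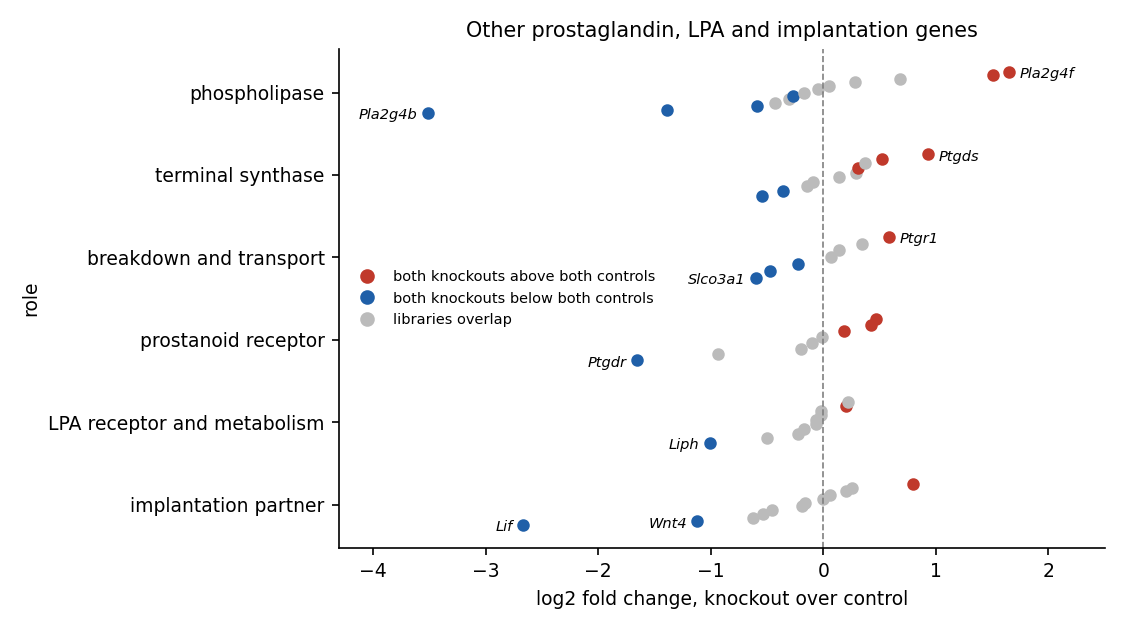
Log2 fold change (knockout over control) of the 60 tested pathway genes by role, 1 point per gene, coloured by whether the libraries of the groups overlap. Pla2g4b at -3.51 and Lif at -2.67 lie farthest from 0.

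Among other phospholipase genes, 0 of 13 tested members passed. Pla2g10, a secreted enzyme gene and the most abundant of this role, was at 72.2 and 116.5 TPM in the controls and 82.8 and 64.7 TPM in the knockouts (log2 fold change -0.31, SE 0.28). Pla2g15, a lysosomal member, was between 29.5 and 36.5 TPM in all 4 libraries. Pla2g4b, a relative of Pla2g4a on chromosome 2, had 77 and 94 counts in the controls against 8 and 5 in the knockouts. Its log2 fold change was -3.51 (SE 0.56), with adjusted p = 0.321 in edgeR and 0.00150 in DESeq2. On the opposite strand it overlaps Sptbn5, which had 191 and 275 counts in the controls against 48 and 42 in the knockouts, so the counting may not separate the pair. On its own strand Pla2g4b overlaps the protein-coding gene Gm28042, which had 0 counts in every library. Strand cannot tell apart the reads that these genes share. At 1.22 and 1.47 TPM in the controls, Pla2g4b was far below Pla2g4a.

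Of 10 other synthase genes, 0 passed. Ptges3, which encodes cytosolic prostaglandin E synthase, also known as the co-chaperone p23, was the most abundant, at 296.5 and 252.9 TPM in the controls and 225.3 and 249.0 TPM in the knockouts (log2 fold change -0.14, SE 0.24). Cbr1, the carbonyl reductase that can turn prostaglandin E2 into F2α, was at 46.6 and 60.6 TPM and at 65.8 and 61.5 TPM, so that both knockouts were above both controls (log2 fold change 0.31, SE 0.23). Ptgds, a prostaglandin D2 synthase gene, had 10 and 16 counts in the controls against 19 and 24 in the knockouts, with a log2 fold change of 0.93 (SE 0.63).

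Of 7 other breakdown and transport genes, 0 passed, while 2 had an unadjusted p under 0.05 in edgeR (3.01% of all tested genes did). Ptgr1, whose enzyme acts after Hpgd, was at 39.2 and 42.9 TPM in the controls and 54.3 and 63.0 TPM in the knockouts. Both knockouts were above both controls (log2 fold change 0.59, SE 0.24), at unadjusted p = 0.0454 (edgeR). Slco3a1, a prostaglandin carrier gene, was at 9.38 and 8.07 TPM in the controls and 5.85 and 5.22 TPM in the knockouts. Both knockouts were below both controls (log2 fold change -0.60, SE 0.25), at unadjusted p = 0.0490 (edgeR). Ptgr3, a prostaglandin reductase gene, was at 115.3 and 82.9 TPM and at 93.5 and 114.2 TPM, and overlapped. The transporter gene Slco2a1, named after its values were seen, was at 14.4 and 12.2 TPM in the controls and 10.5 and 7.97 TPM in the knockouts (log2 fold change -0.48, SE 0.22, adjusted p = 1.0, edgeR).

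Of 8 other prostanoid receptor genes, 0 passed. Ptgfrn, which encodes a protein that binds FP and dampens it, was at 86.2 and 36.8 TPM in the controls and 42.2 and 66.1 TPM in the knockouts, again with control 1 and knockout 2 high. Ptger1, the gene of the prostaglandin E2 receptor EP1, was at 50.3 and 56.7 TPM in the controls and 66.9 and 51.0 TPM in the knockouts (log2 fold change 0.19, SE 0.21), which overlap in TPM, although both knockouts were above both controls in CPM. The prostaglandin D2 receptor gene Ptgdr had 49 and 12 counts in the controls against 11 and 6 in the knockouts. Its log2 fold change was -1.66 (SE 0.84), and -0.30 without control replicate 1. The prostacyclin receptor gene Ptgir, named after its values were seen, was at 6.36 and 2.63 TPM in the controls and 1.23 and 3.15 TPM in the knockouts, with knockout 2 between the controls.

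Of 10 genes of LPA receptors and metabolism, 0 passed. The phosphatase gene Plpp3, whose enzyme degrades LPA, was at 203.5 and 198.0 TPM in the controls and 220.8 and 220.8 TPM in the knockouts (log2 fold change 0.20, SE 0.23). Plpp2, of the same family, was at 86.7 and 70.9 TPM and at 78.1 and 96.5 TPM. Liph, a phospholipase gene that makes LPA, had the largest fold change of this role, -1.01 (SE 0.67), at 0.212 to 0.598 CPM per library. The other 7 genes of this role overlapped between the groups.

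Of 12 genes that act with Lpar3 and Ptgs2 at implantation, 0 passed in edgeR. Lif, the gland cytokine needed for implantation, was at 41.0 and 6.98 TPM in controls 1 and 2 and 3.72 and 3.52 TPM in the knockouts. Its log2 fold change was -2.67 (SE 0.75), with adjusted p = 1.0 in edgeR and 0.00465 in DESeq2. The size rested on control 1: without it the log2 fold change was -0.87, and without control replicate 2 it was -3.44 (adjusted p = 0.00228 in edgeR, where 0.189% of tested genes were called). Hoxa10, a stromal homeobox gene, was at 389.1 and 451.9 TPM in the controls and 544.9 and 392.3 TPM in the knockouts, and the luminal homeobox gene Msx1 at 211.0 and 427.0 TPM and at 442.0 and 295.6 TPM. Hbegf and Bmp2, named after their values were seen, are known from the LPA3 branch of decidualisation. Hbegf was at 8.39 and 5.05 TPM in the controls and 5.19 and 6.23 TPM in the knockouts, and Bmp2 at 12.8 and 6.97 TPM and at 7.22 and 9.19 TPM. In both genes, as in Ptgs2, control 1 was above control 2 and knockout 2 above knockout 1, although knockout 2 was between the controls and not above them. Wnt4, of the same branch, was at 6.26 and 5.97 TPM in the controls and 3.86 and 1.68 TPM in the knockouts, with both knockouts below (log2 fold change -1.12, SE 0.43, adjusted p = 1.0, edgeR).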

How the data were processed

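RNA was from whole mouse uterus on gestational day 4, with 2 control and 2 knockout samples. Per the series' design text, paired reads of 150 bases were demultiplexed by bcl2fastq 2.17. Trimmomatic, STAR, featureCounts and GRCm39 are named in the submitters' processing notes, while versions, settings, annotation and strand mode were not given in the sources used here. The authors deposited raw counts for 57186 genes and TPM for 19991 of them, each with a total count of at least 51. Recomputing TPM from counts and gene lengths matched the deposited values to within 3.64e-11. The smallest chi-square per degree of freedom between 2 libraries was 40.9, so no pair agreed within sampling noise. That pair, control 2 with knockout 1, lay across the groups, as did the pair with the largest value, 119.2 (control 2 with knockout 2). The value was 86.2 between the controls and 81.9 between the knockouts.

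The test was the quasi-likelihood test of edgeR 4.0.16 (R 4.3.3) on counts with TMM factors and a model of group alone, after filterByExpr (minimum count 10, total 15) had kept 20950 genes. P-values were adjusted by Benjamini-Hochberg. CPM was computed with TMM factors. A floor of 3 counts equals 0.0855 to 0.107 CPM. The precision is limited by 2 samples per group. Alternatives were DESeq2 1.42.0, limma-voom (limma 3.58.1), RLE or upper-quartile scaling, limma on log2(TPM + 1) and log2(TPM + 0.1), no filter and a stricter one (1 CPM in 2 libraries), the replicate number as a block, and leaving out each library.

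The members and lists were chosen with earlier results of these data known. Of the pathway list, 4 older symbols were merged with their current ones. Named were Pgr and Prss29, the 10 genes, in each role the 2 with the highest mean TPM, the 1 with the largest fold change and any past the threshold, and in each marker list the 2 with the highest mean TPM. Of the last, those not printed stand in the summed levels. Wnt4, Slco2a1, Ptgir, Hbegf, Bmp2, Star, Cyp19a1, Hsd3b1, Dcn, Vim, Hoxa11, Hand2, Pdgfra, Cidec, Krt13 and the overlapping genes were named after their values were seen or for their position. Foxa2, Sox9, Csf1r, Cd68, Adgre1, Mrc1, C1qb and Fcgr1 were also named after their values were seen.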

Additional observations from a re-analysis of the deposited data

How the results depend on the processing

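The count of 0 among the 10 genes held in all 13 alternatives other than the crossed pairing, with a smallest adjusted p of 0.337. Of 130 fold changes of these genes under these alternatives, 114 kept their sign and 16 did not, and Ptger2, Ptger4 and Ptgfr kept theirs in all 13. With all 4 libraries, Ptgs2 turned to -0.29 (limma-voom), -0.22 (log2(TPM + 0.1)) and -0.13 (replicate block). Ptgis turned to 0.014 (limma-voom) and 0.018 (replicate block), and Pla2g15 to -0.0063 and -0.0066 (TPM with 1 and 0.1 added). The cause was not tested.

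With 1 library left out, where the lone library of a group is assumed to vary like the others, the log2 fold change ran from -0.21 to 0.72 for Pla2g4a, -0.12 to 0.43 for Ptgs1, -2.70 to 1.91 for Ptgs2, -0.81 to 0.53 for Ptges, -0.49 to 0.60 for Ptgis, -0.41 to 0.23 for Hpgd and -0.42 to 0.41 for Lpar3. It ran from -0.59 to 0.078 for Pla2g10, -0.33 to 0.021 for Ptges3, -0.13 to 0.41 for Ptgr3, -0.59 to 0.66 for Ptgfrn, -0.055 to 0.46 for Plpp2, -0.16 to 0.84 for Msx1 and -0.098 to 0.069 for Pgr. Between 5 and 7 of the 10 genes did not overlap once 1 of the 4 libraries was left out, which leaves fewer samples to overlap. The share of all tested genes that did so in these fits was not computed. The count is therefore not read as a result about the 10 genes. Pathway genes called were 2 with DESeq2, 1 with no low-count filter (Pla2g4b, 0.158% of tested genes called) and 0 to 1 with 1 library left out (Lif, without control replicate 2).

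Over all genes, where the main test called 1, DESeq2 called 90, limma-voom 0, log2(TPM + 1) 8, log2(TPM + 0.1) 7, no filter 54 and the fits without 1 library 16 to 49. The replicate block called 32 genes, none of them among the 10. Replicate numbers give no sign of a shared animal or batch, and the differences between replicates ran against the numbers (correlation over genes -0.444 for control 1 minus control 2 with knockout 1 minus knockout 2). The crossed pairing, added after the data were seen, called 37 genes, 0 of the 10 and 0 of the pathway list. Depth limits genes of low count such as Ptgs2 in knockout 1, Ptgds and Ptgdr.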
